A study of Mus musculus with 5 samples.

Results

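The genes described here are 6 receptors of the P2Y purinergic family, *P2ry1*, *P2ry2*, *P2ry6*, *P2ry12*, *P2ry13* and *P2ry14*, taken by symbol from the GENCODE annotation of the mouse assembly GRCm38, out of 21755 protein-coding genes on the autosomes and the X chromosome. CpG methylation was measured by whole-genome bisulfite sequencing (WGBS), in which an unmethylated cytosine reads as T and a methylated cytosine as C. The samples were acute myeloid leukemia (AML) blasts from the bone marrow of C57BL/6 mice, 2 libraries with intact *Tet2* (*Tet2*+/+, numbered 23 and 24) and 3 libraries without it (*Tet2*-/-, numbered 5, 7 and 8). All 5 libraries, controls included, were *Cebpa*-/p30, meaning that one *Cebpa* allele was deleted and the other made p30 alone, a shortened version of the myeloid factor CEBPA. TET2, a dioxygenase that oxidizes 5-methylcytosine as a step towards its removal, was thus the only labelled difference between the groups. Per the methods of the study, the deletions were induced with Mx1-Cre, which is driven by an interferon-responsive promoter, by poly(I:C) after donor marrow had been transplanted into irradiated female recipients of the C57BL/6J.SJL strain. Blasts were sorted as live donor-derived cells negative for CD3, B220 and Ter119, so cells of several myeloid stages could be present. Per the study, shares of marrow cells by myeloid and granulocytic surface markers differed between the genotypes in moribund mice. The study also reports a shorter latency of the leukemia without *Tet2*. The part of either in the values below was not tested. The labels do not name ages or batches.

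P2Y receptors are G protein-coupled receptors for nucleotides that cells release when they are stressed or damaged. Products of *P2ry1*, *P2ry2* and *P2ry6* signal mainly through Gq and phospholipase C, and those of *P2ry12*, *P2ry13* and *P2ry14* mainly through Gi. They are known in blood cells for platelet activation, chemotaxis and the sensing of danger by macrophages and microglia. The receptor protein is encoded mostly within a single exon, so that the start of transcription can lie far from the protein-coding part.

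The members fall in 2 places. *P2ry12*, *P2ry13* and *P2ry14* lie close together within *Med12l* on chromosome 3, with *P2ry1* further along the same chromosome, and *P2ry2* and *P2ry6* are neighbors on chromosome 7. The starts also differ in CpG content. Promoters, reaching 1000 bp upstream and downstream of a gene's 5′ end, held 119 CpG dyads (a CpG with both strands added) in *P2ry1*, 59 in *P2ry2*, 55 in *P2ry6*, 38 in *P2ry13*, 27 in *P2ry12* and 20 in *P2ry14*, against a median of 70 over all promoters. Of the 6 genes, 5 matched 9 entries in the table of RefSeq promoter sequences (GRCm38.p6) used here. A CpG-rich start (*P2ry1*, 25 CpGs in 300 bases) and a CpG-poor start (*P2ry12*, 4 CpGs) are printed here with the start of *P2ry13* and the 200 bases of its coding exon where its methylation differed most, with every CpG in capitals.
*P2ry1* promoter, chr3:61002535-61002834, + strand: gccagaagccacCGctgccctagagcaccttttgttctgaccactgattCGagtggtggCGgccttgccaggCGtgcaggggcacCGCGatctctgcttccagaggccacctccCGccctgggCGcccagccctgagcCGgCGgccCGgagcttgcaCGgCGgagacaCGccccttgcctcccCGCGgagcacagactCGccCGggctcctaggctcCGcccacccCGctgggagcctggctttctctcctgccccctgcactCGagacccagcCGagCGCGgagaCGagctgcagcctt
*P2ry12* promoter, chr3:59262936-59263235, - strand: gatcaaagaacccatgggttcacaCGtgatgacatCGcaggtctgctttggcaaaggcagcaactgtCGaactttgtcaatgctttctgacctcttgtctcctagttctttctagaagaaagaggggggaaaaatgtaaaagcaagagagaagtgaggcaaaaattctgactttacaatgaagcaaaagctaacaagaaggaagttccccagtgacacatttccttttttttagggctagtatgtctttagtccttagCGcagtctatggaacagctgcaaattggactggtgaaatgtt
*P2ry13* promoter, chr3:59210833-59211132, - strand: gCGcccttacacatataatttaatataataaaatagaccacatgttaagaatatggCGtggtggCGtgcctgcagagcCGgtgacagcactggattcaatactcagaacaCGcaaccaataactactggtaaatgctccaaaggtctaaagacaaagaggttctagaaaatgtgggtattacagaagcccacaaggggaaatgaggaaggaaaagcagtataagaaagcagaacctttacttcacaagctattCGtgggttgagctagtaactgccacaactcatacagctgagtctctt
*P2ry13* coding exon, chr3:59209883-59210082, - strand: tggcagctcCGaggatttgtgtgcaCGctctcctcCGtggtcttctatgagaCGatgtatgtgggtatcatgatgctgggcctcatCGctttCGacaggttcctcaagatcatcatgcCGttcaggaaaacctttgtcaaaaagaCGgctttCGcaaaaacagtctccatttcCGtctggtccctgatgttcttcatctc

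Over these 300-base starts, methylation was low in most libraries. Levels of single libraries are always given in the order 23, 24 for *Tet2*+/+ and 5, 7, 8 for *Tet2*-/-. The *P2ry1* start had levels of 3.13% and 2.04% in *Tet2*+/+ and of 0%, 0.847% and 0% in *Tet2*-/- (40 to 118 calls per library). In the *P2ry13* start, the 6 CpGs had 6 to 39 calls per library, and only *Tet2*-/- library 5 had a methylated call (2.56%). The *P2ry12* start was at 0% and 4.55% in *Tet2*+/+ and at 0%, 34.8% and 5.88% in *Tet2*-/- libraries 5, 7 and 8, so library 7 alone stood high. These levels (15 to 24 calls per library) cover 5 dyads, the 4 printed CpGs and a CpG cut by the end of the interval. A level of 0% is only as firm as its number of calls, and from as few as 6 calls it does not exclude partial methylation. In the 200 bases of the *P2ry13* coding exon, by contrast, the level was 31.7% and 13.9% in *Tet2*+/+ and 89.1%, 90.0% and 78.8% in *Tet2*-/-, with 33 to 64 calls.

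Motifs of blood transcription factors were searched on both strands of the 9 entries as descriptions of the sequence. The PU.1 motif GAGGAA was present in the *P2ry13* entry and in all 4 entries of *P2ry14* and in 28.3% of all 32851 entries. The *P2ry14* entries that begin at 59131069 and 59131279 overlap, and their match is the same site. The RUNX motif TGTGGT was found in *P2ry13* alone (16.8% of all entries), and the GATA motif AGATAA in 3 of the 4 *P2ry14* entries (11.2%). The C/EBP motif TTGCNNCAA was found in none of the 9 (2.08% of all entries). Each motif was searched on its own, so matches of different motifs may overlap. The entries of *P2ry1*, *P2ry2* and *P2ry12* held none of them.

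Depth was modest. The libraries held 63111735 to 110752967 CpG calls, or 2.96 to 5.19 calls per dyad, so calls were summed over regions, and the methylation level was the methylated share of all calls in a region. Taken over all CpGs, the level was 67.3% and 62.3% in *Tet2*+/+ and 70.9%, 74.8% and 68.4% in *Tet2*-/-, a difference of 6.52 points (exact permutation p = 0.2). With 2 libraries against 3, an exact permutation test cannot go below p = 0.1, so no single value could pass 0.05. Differences between the groups at any locus therefore stand on a background of higher methylation in *Tet2*-/-, with a median difference of 2.22 points over 19455 promoters and 4.95 points over 20715 gene bodies. Library 7 was the highest of all. Within 200 kb around each gene, coverage was 0.839 to 1.33 times that of the genome in every library. Markers of cell types were read as a description beside the labelled cell type. Mean promoter methylation of 8 genes of myeloid progenitors and granulocytes lay between 18.9% and 21.6% in the 5 libraries. It lay between 43.7% and 55.6% for 6 B cell genes and between 47.7% and 58.4% for 6 erythroid genes. It lay between 28.1% and 42.9% for 6 monocyte and macrophage genes and between 47.2% and 56.6% for 6 megakaryocyte genes. The median *Tet2*+/+ level was 10.1% for the myeloid list and 23.9% to 67.5% for the other marker lists, beside 13.3% over all promoters. The lists were not matched for CpG content, so these levels do not identify the cells. Single genes of the lists overlapped widely. Their *Tet2*+/+ means ran from 0.79% to 46.9% for myeloid, 12.3% to 74.7% for B cell and 9.89% to 82.3% for erythroid genes. They ran from 2.83% to 68.8% for monocyte and 35.8% to 67.3% for megakaryocyte genes. None of the marker promoters of these lists passed the test used below, but gene bodies of the lists did, all higher in *Tet2*-/-. These were 5 of 6 for T and NK cells, 3 of 6 for megakaryocytes, 3 of 8 for myeloid cells, 2 of 6 each for B and erythroid cells and 1 of 6 for monocytes, where 15.5% of all gene bodies passed higher, and their part in the gene body results was not tested. Mean promoter methylation of 6 T and NK cell genes was 62.8% and 67.3% in *Tet2*+/+ and 76.4% to 81.1% in *Tet2*-/-, and its part in the results below was not tested. In such bulk samples a change in the share of cell types and a change within the cells cannot be told apart.

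**Figure D1:**
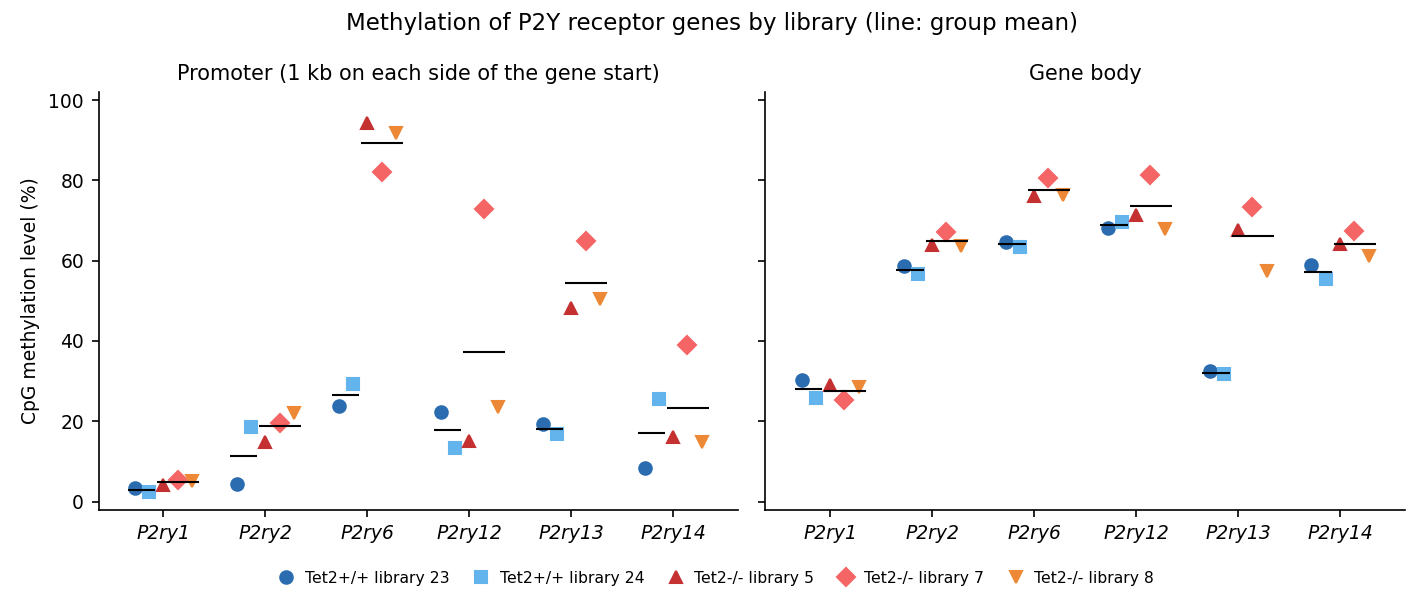
CpG methylation level (percent) of the promoter (left) and gene body (right) of each P2Y receptor gene, 1 point per library, with a line at each group mean (2 *Tet2*+/+ and 3 *Tet2*-/- libraries). The *P2ry6* and *P2ry13* promoters show a gap between the groups, whereas *P2ry12* is high in *Tet2*-/- library 7 alone and the *P2ry1* promoter is low in all libraries.

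*P2ry6*, the receptor for UDP and a driver of phagocytosis and chemokine release in macrophages, had the widest gap between the groups. It was selected on its promoter difference in these same libraries, so its values are a description without a test. Its promoter (chromosome 7, 100973649 to 100975649) was at 23.9% and 29.2% in *Tet2*+/+ and at 94.2%, 82% and 91.7% in *Tet2*-/-, each from 192 to 381 calls. Its mean in *Tet2*-/-, 89.3% ± 6.47 (SD, n = 3), exceeded that in *Tet2*+/+, 26.6% ± 3.77 (SD, n = 2), by 62.7 points, which is rank 3 from the top of all 19455 promoters. Library 7, although the highest in the genome as a whole, was the lowest of the 3 *Tet2*-/- libraries here. Reads of both strands gave alike values, with differences of 61.5 points on the plus strand and 62.9 points on the minus strand. Of 939 dyads of the locus with at least 5 calls in each group, 17 had no methylated call in *Tet2*+/+ and were mostly methylated in *Tet2*-/-, and none showed the opposite. Around *P2ry12* the same held for 18 of 553 dyads, again with none the other way. Calls were pooled over each group for these counts, so a single library can carry them. Library 7 stood far above the other *Tet2*-/- libraries at the *P2ry12* start. For *P2ry1*, *P2ry2*, *P2ry13* and *P2ry14* the counts were 2 of 261, 0 of 514, 3 of 317 and 3 of 530, with none the other way. Loci of neighbors share dyads. The share of such dyads over the genome, where *Tet2*-/- was also higher, was not counted, so these counts are a description only.

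The difference was concentrated in 3 adjacent 1 kb windows. The central one (chromosome 7, 100974001 to 100975000, 37 dyads), which holds the 5′ end of the gene, was at 8.12% and 10.5% in *Tet2*+/+ and at 96.1%, 75.8% and 92.1% in *Tet2*-/-, a difference of 78.7 points. Of its dyads, 35 had at least 5 calls in each group, and all 35 were higher in *Tet2*-/-, by 51.3 to 100 points, with a median of 6.67% against 88.9%. This window was picked as the one with the largest difference, within the promoter that selected the gene. Its dyads, with calls pooled over each group, are therefore not separate evidence. The windows on either side differed by 32.2 points upstream and 31.6 points downstream. Beyond them, the window next downstream was at 75.9% and 84.2% in *Tet2*+/+ and 75.9%, 84.6% and 85.7% in *Tet2*-/-, without a gap. In *Tet2*+/+ the gene start was thus a short, mostly unmethylated stretch in methylated surroundings, and in *Tet2*-/- it was methylated like them. A promoter of 500 bp on each side, which holds mostly this stretch, differed by 77.3 points and a promoter of 2000 bp on each side by 54.6 points.

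**Figure D2:**
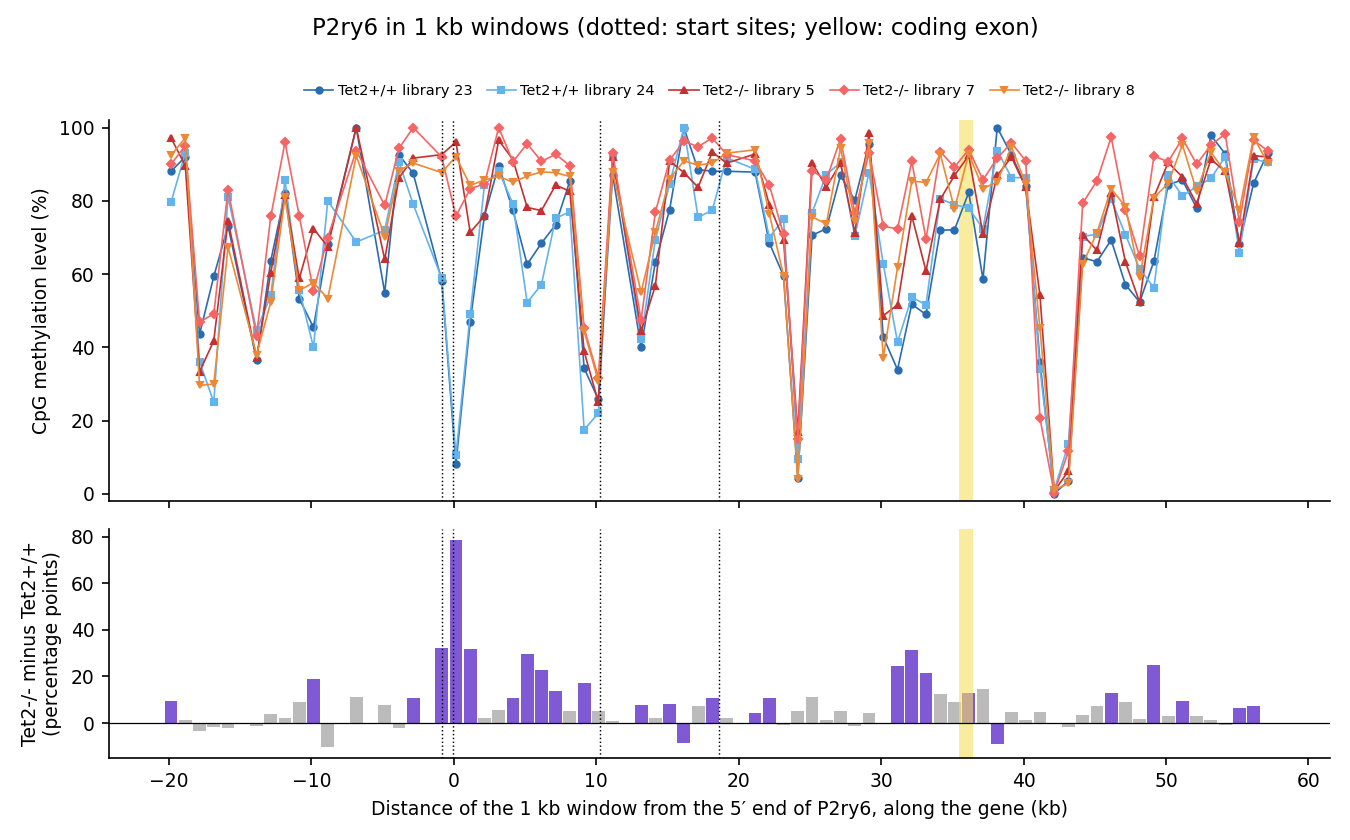
Methylation level of each library (top, percent) and difference of group means (bottom, percentage points) in 1 kb windows with at least 10 calls in every library, by distance of the window centre from the 5′ end of *P2ry6* (kb, downstream to the right). Purple bars mark windows whose groups do not overlap and grey bars the others. The tallest bar, 78.7 points, stands at the 5′ end, and the dips around 10 kb, 24 kb and 42 kb are shared by all 5 libraries.

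Not all starts of *P2ry6* shared this pattern. The 5′ end of the gene in GENCODE belongs to a noncoding transcript, with a RefSeq mRNA start close by (chromosome 7, 100974706) and another further upstream (100975498). Within 1 kb of these 2 RefSeq starts, the levels differed by 63.8 and 54.2 points. The only protein-coding transcript in GENCODE starts at 100964391, within the gene, where the level was 35.5% and 25% in *Tet2*+/+ and 36.6%, 44.3% and 42.3% in *Tet2*-/-, a difference of 10.8 points. The 200 bases just upstream of this inner start (4 dyads, 15 to 40 calls) were low in both groups, at 5% and 10.5% in *Tet2*+/+ and 2.5%, 7.5% and 0% in *Tet2*-/-. A further RefSeq start at 100956032 was methylated in all libraries (85.0% to 92.6%).

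Over the gene body of *P2ry6* (chromosome 7, 100937630 to 100974649, 470 dyads), the level was 64.7% and 63.4% in *Tet2*+/+ and 76.2%, 80.5% and 76.4% in *Tet2*-/-, 13.6 points more on average, with an SD of 0.917 in *Tet2*+/+ (n = 2) and 2.44 in *Tet2*-/- (n = 3). Apart from the start, 2 other stretches within the gene showed wide gaps. At 100967001 to 100970000, 3 windows differed by 13.9 to 29.4 points, and at 100941001 to 100944000, 3 windows differed by 21.5 to 31.3 points. These stretches were picked after they were seen and carry no test. Of 36 gene body windows with at least 10 calls, 3 differed by at least 30 points, where the share in the genome was 3%. Windows of the start, which overlap the promoter that selected the gene, are among them. The count is therefore a description and cannot be measured against the genome's share. In the coding exon (100938167 to 100939150, 48 dyads) the level was 82% and 81.1% in *Tet2*+/+ and 93.1%, 94.8% and 93.0% in *Tet2*-/-. The coding exon was thus mostly methylated in both groups, with a difference of 12.1 points. Downstream, the CpG-dense start of *Arhgef17*, a guanine nucleotide exchange factor, was unmethylated in every library (0% to 1.05% in the window at 100932001, 56 dyads).

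**Figure D3:**
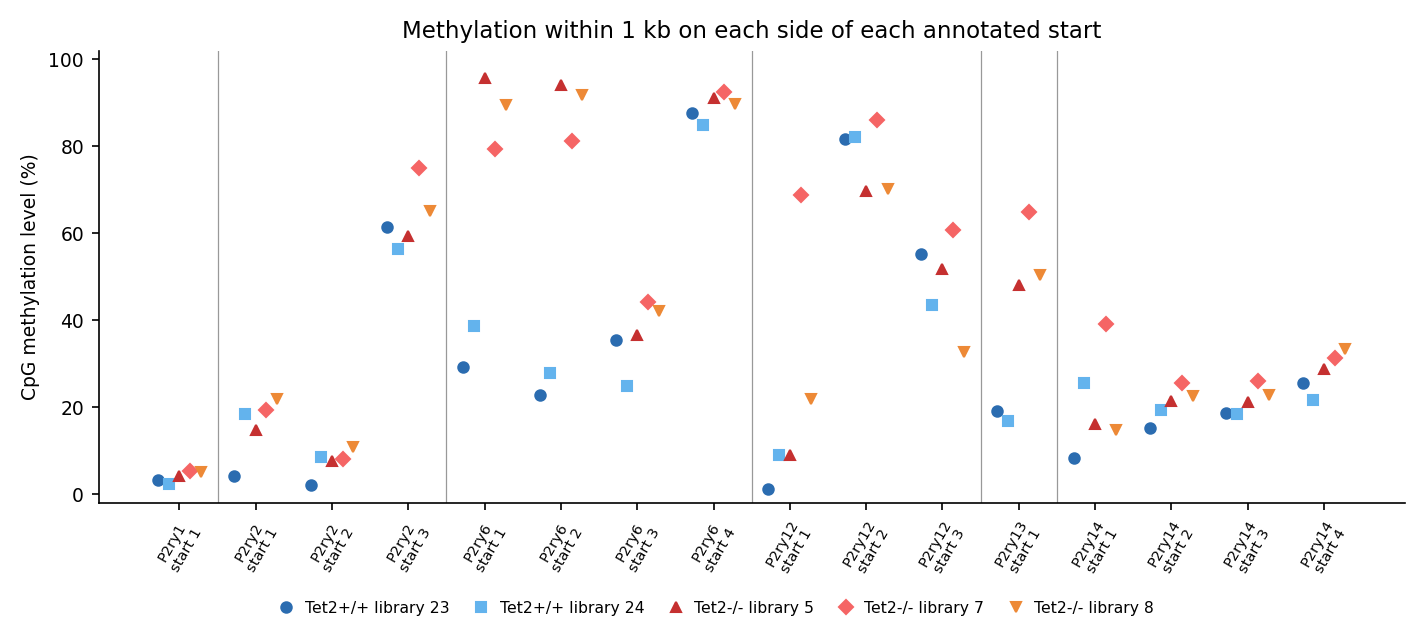
Methylation level (percent) within 1 kb on each side of every annotated start of the 6 genes, 1 point per library; starts within 300 bp are merged and numbered from the most upstream. Starts 1 and 2 of *P2ry6* separate the groups widely. Start 3, which begins its only protein-coding transcript in GENCODE, separates them by 10.8 points. Start 4 lies between 85.0% and 92.6% in all libraries.

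For the other 5 genes edgeR's quasi-likelihood test was run over the promoters of all genes, and 1 of 5 promoters passed a Benjamini-Hochberg adjusted p of 0.05, higher in *Tet2*-/-, and none passed lower. Over all genes, 1.06% of promoters passed higher and 0.0154% lower. All *Tet2*-/- libraries were above both *Tet2*+/+ libraries in 2 of the 5 promoters and below in none, against 32.8% and 4.05% of all promoters. Of the 5 gene bodies, 1 passed higher and none lower, where 15.5% of all gene bodies passed higher and 0.0676% lower. All *Tet2*-/- libraries were above in 3 of the 5 gene bodies and below in none, against 46% and 1.46% of all. Both calls belonged to *P2ry13*, and at these settings no other member had an unadjusted edgeR p under 0.05 for promoter or body.

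*P2ry13*, an ADP receptor coupled to Gi that is found on monocytes and dendritic cells, rose at its promoter and gene body. The promoter (chromosome 3, 59209882 to 59211882, 38 dyads) was at 19.2% and 16.8% in *Tet2*+/+ and 48.2%, 65.0% and 50.5% in *Tet2*-/-. All 3 *Tet2*-/- libraries were above both others, and their mean of 54.6% ± 9.11 (SD, n = 3) stood 36.6 points over the *Tet2*+/+ mean of 18.0% ± 1.72 (SD, n = 2) (edgeR adjusted p = 0.0313; exact permutation p = 0.1). The call rested on all libraries but *Tet2*-/- library 5, since without any 1 of the other 4 the edgeR adjusted p lay between 0.0548 and 0.395, while the difference stayed between 31.3 and 38.6 points. The gene body (59207892 to 59210882, 43 dyads) was at 32.5% and 31.7% in *Tet2*+/+ and 67.7%, 73.3% and 57.3% in *Tet2*-/-, a rise of 34 points (edgeR adjusted p = 0.000284; exact permutation p = 0.1) that lost its call only without *Tet2*+/+ library 24 (33.6 points, edgeR adjusted p = 0.107) among the libraries left out. Promoter and gene body share the first 1 kb of the gene, so they are not separate evidence.

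Around the *P2ry13* start itself both groups were low. The 200 bases before the start (4 dyads) had no methylated call in any library, at 2 to 26 calls, and the first 200 bases of the gene were at 0% in all but library 5 (6.67%), at 10 to 15 calls per library. From 200 to 399 bases the groups overlapped. Further in, all *Tet2*-/- libraries were above both others, by 40.7 points in the bin from 400 to 599, 45.9 points from 600 to 799 and 63.2 points in the next one, the stretch printed above. The coding exon as a whole (59209345 to 59210355, 25 dyads) was at 34.5% and 27.0% in *Tet2*+/+ and 76.3%, 86.9% and 69.4% in *Tet2*-/-, a difference of 46.8 points. A promoter of 500 bp on each side, which leaves out that exon, differed by only 15.4 points and did not pass (edgeR adjusted p = 0.387). The coding exon was thus partly methylated in *Tet2*+/+ and mostly methylated in *Tet2*-/-. Upstream of the start, sparse bins were also higher in all *Tet2*-/- libraries, by 22.8 points in the 200 bp bin that begins 600 bases upstream (2 dyads, 8 to 16 calls) and by 19.0 points in the next bin out (1 dyad, 4 to 7 calls). Between these and the start, 3 dyads were at 0% in both *Tet2*+/+ libraries and at 21.4% and 40% in libraries 5 and 7, with no call in library 8.

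**Figure D4:**
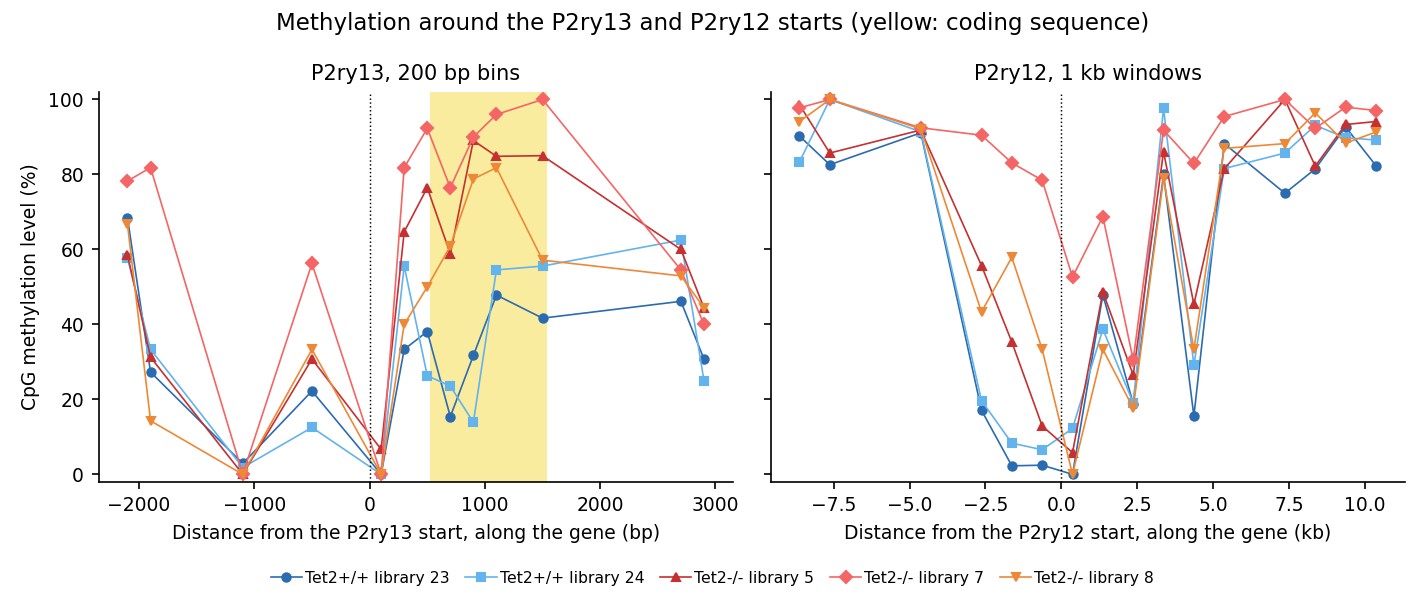
Methylation level (percent) of each library in 200 bp bins around the *P2ry13* start (left, at least 5 calls per library) and in 1 kb windows around the *P2ry12* start (right, at least 10 calls), by distance along the gene. The groups separate over the coding sequence of *P2ry13* and just upstream of *P2ry12*, where *Tet2*-/- library 7 is the highest.

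*P2ry12*, the ADP receptor of platelets that antiplatelet drugs block and a marker of microglia, behaved differently among the *Tet2*-/- libraries. Its promoter (chromosome 3, 59261871 to 59263871, 27 dyads) was at 22.2% and 13.4% in *Tet2*+/+ and 15%, 72.9% and 23.6% in *Tet2*-/-. Library 7 stood alone, and library 5 lay within the *Tet2*+/+ range and library 8 just above it (difference 19.4 points, SD of *Tet2*-/- 31.2, n = 3; edgeR adjusted p = 0.465; exact permutation p = 0.6). Without library 7 the difference was 1.49 points, and without library 5 it was 30.4 points. Within 1 kb of the start that most of its transcripts use, slightly upstream (59262985), the levels were 1.22% and 9.09% in *Tet2*+/+ and 9.16%, 68.9% and 21.8% in *Tet2*-/-. There library 5 was barely above library 24. The groups also did not overlap in the 3 windows that follow upstream. Of 11 windows within 20 kb upstream with at least 10 calls, all *Tet2*-/- libraries were above in 8 and below in 0. Among windows of the genome 28.7% were above. In the first whole window upstream (59263001 to 59264000) the levels were 2.44% and 6.56% in *Tet2*+/+ and 12.9%, 78.5% and 33.3% in *Tet2*-/-. In the next window they were 2.27% and 8.33% in *Tet2*+/+ and 35.3%, 83.1% and 57.9% in *Tet2*-/-, and in the one after it 17.1% and 19.6% in *Tet2*+/+ and 55.7%, 90.5% and 43.3% in *Tet2*-/-. The differences of 37.1, 53.5 and 44.8 points became 18.6, 41.3 and 31.1 points without library 7, an alternative chosen after seeing the data. Library 7 was the highest in each of the 3 windows, while the order of libraries 5 and 8 changed between them.

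Over the 20 kb upstream of *P2ry12* the level was 62.2% and 66.7% in *Tet2*+/+ and 76.8%, 91.4% and 76.9% in *Tet2*-/-, a difference of 17.3 points (exact permutation p = 0.1). The gene body overlapped between the groups, at 68.0% and 69.6% against 71.4%, 81.4% and 67.8% (edgeR adjusted p = 0.300), with a difference of 4.75 points that was 0.80 points without library 7. Within it, an intronic window (59258001 to 59259000, 20 dyads) was higher in all *Tet2*-/- libraries, at 45.4%, 82.9% and 33.3% against 15.5% and 29.1%. The coding exon (59217212 to 59218252) was nearly fully methylated in all libraries (91.3% to 98.9%). The window at 59228001 was among the few where all *Tet2*-/- libraries were lower, at 30.5%, 33.9% and 35.5% against 48.9% and 44.9%. Both windows were picked after they were seen and carry no test.

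*P2ry14*, the receptor for UDP-glucose found on neutrophils and on stem and progenitor cells, did not pass at its promoter (59152618 to 59154618, 20 dyads). The levels of 8.45% and 25.6% in *Tet2*+/+ and 16.2%, 39.1% and 14.9% in *Tet2*-/- overlapped (edgeR adjusted p = 0.718; exact permutation p = 0.7), and the difference of 6.36 points ranged from -2.22 points without library 23 to 14.9 points without library 24. The 3 inner starts were 4.87 to 7.60 points higher in *Tet2*-/-, with all *Tet2*-/- libraries above both *Tet2*+/+ libraries at each, but these intervals overlap and share calls. The gene body was at 58.8% and 55.5% in *Tet2*+/+ and 64.2%, 67.3% and 61.2% in *Tet2*-/- (difference 7.05 points, edgeR adjusted p = 0.194; exact permutation p = 0.2). The widest gaps lay elsewhere in the gene. The main coding exon (59115024 to 59116061, 30 dyads) was at 47.5% and 57.8% in *Tet2*+/+ and 84.4%, 89.8% and 91.3% in *Tet2*-/-, a difference of 35.9 points. An intronic window (59136001 to 59137000, 6 dyads, 14 to 38 calls) differed by 45.9 points, at 42.9% and 21.4% against 84.2%, 91.4% and 58.6%. Both values were picked as the widest gaps in the gene after they were seen, and they carry no test.

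*P2ry1*, an ADP receptor coupled to Gq that acts with *P2ry12* in platelets, had the most CpG-rich start of the 6. Its promoter (chromosome 3, 61001795 to 61003795) was at 3.41% and 2.29% in *Tet2*+/+ and 4.25%, 5.37% and 5.06% in *Tet2*-/-, so the groups did not overlap, and lay 2.04 points apart on average, with an SD of 0.785 in *Tet2*+/+ (n = 2) and 0.580 in *Tet2*-/- (n = 3) (edgeR adjusted p = 0.323; exact permutation p = 0.1). This difference was close to the median of all promoters, 2.22 points, and was 0.026 points with 500 bp and 0.29 points with 2000 bp on each side. The gene body was at 30.2% and 25.8% against 28.9%, 25.3% and 28.5% (difference -0.42 points; edgeR adjusted p = 0.951; exact permutation p = 0.9). One window past the CpG-rich part (61004001 to 61005000, 15 dyads) was higher in *Tet2*-/-, at 91.6%, 97.3% and 90.7% against 76.4% and 64.8%. This window was picked after it was seen and carries no test.

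*P2ry2*, the receptor for ATP and UTP that guides neutrophils to sites of nucleotide release, showed a difference between the *Tet2*+/+ libraries themselves. Its promoter (chromosome 7, 101011866 to 101013866, 59 dyads) was at 4.29% and 18.5% in *Tet2*+/+ and 14.7%, 19.5% and 22.1% in *Tet2*-/- (difference 7.39 points; edgeR adjusted p = 0.362; exact permutation p = 0.4). Library 23 stood alone here, and the difference was 0.30 points without it and 14.5 points without library 24. With 500 bp on each side it was 16.0 points (edgeR adjusted p = 0.455). In the window that starts at 101013001 it was at 22.5%, where library 24 was at 71.4% and the *Tet2*-/- libraries were at 65.5%, 66.7% and 77.4%. In the window upstream of that, it was at 36.8% against 80.4% in library 24 and 86.4%, 94.0% and 95.0% in *Tet2*-/-. The 300 bases around the start used by most of its transcripts (28 CpGs) were at 0% to 1.60% in all libraries. The gene body was at 58.6% and 56.6% in *Tet2*+/+ and 63.9%, 67.2% and 63.7% in *Tet2*-/- (difference 7.30 points; edgeR adjusted p = 0.198; exact permutation p = 0.1). A short stretch at 101010001 (5 dyads) was lower in all *Tet2*-/- libraries, at 52.2%, 52.5% and 53.8% against 72.7% and 67.9%. This stretch was picked after it was seen and carries no test.

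Side by side, the 6 genes held their differences in different places. Coding exons of *P2ry13* and *P2ry14* differed by 46.8 and 35.9 points and that of *P2ry6* by 12.1 points, whereas those of *P2ry2* and *P2ry12* were above 85% in all libraries. The coding exon of *P2ry1* was at 58.7% and 42.5% in *Tet2*+/+ and 60.7%, 59.0% and 59.3% in *Tet2*-/-. Over all 6 loci with 20 kb on each side, 279 windows of 1 kb had at least 10 calls in every library. The *Tet2*-/- libraries were all higher than both *Tet2*+/+ libraries in 88 of them (31.5%) and all lower in 9 (3.23%), beside 28.7% and 2.6% among 1643430 windows of the genome. The share was 27 of 66 windows around *P2ry12*, 25 of 72 around *P2ry6* and 17 of 70 around *P2ry14*, and windows of neighbors are partly the same. Differences of at least 30 points were seen in 15 of the 279 (5.38%), against 3% in the genome, and 4 of the 15 belong to *P2ry6*, which was chosen for such a difference. A further 6 lie around *P2ry12*, in part shared with *P2ry13*. The first window upstream of *P2ry12* fell from 37.1 to 18.6 points without library 7.

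**Figure D5:**
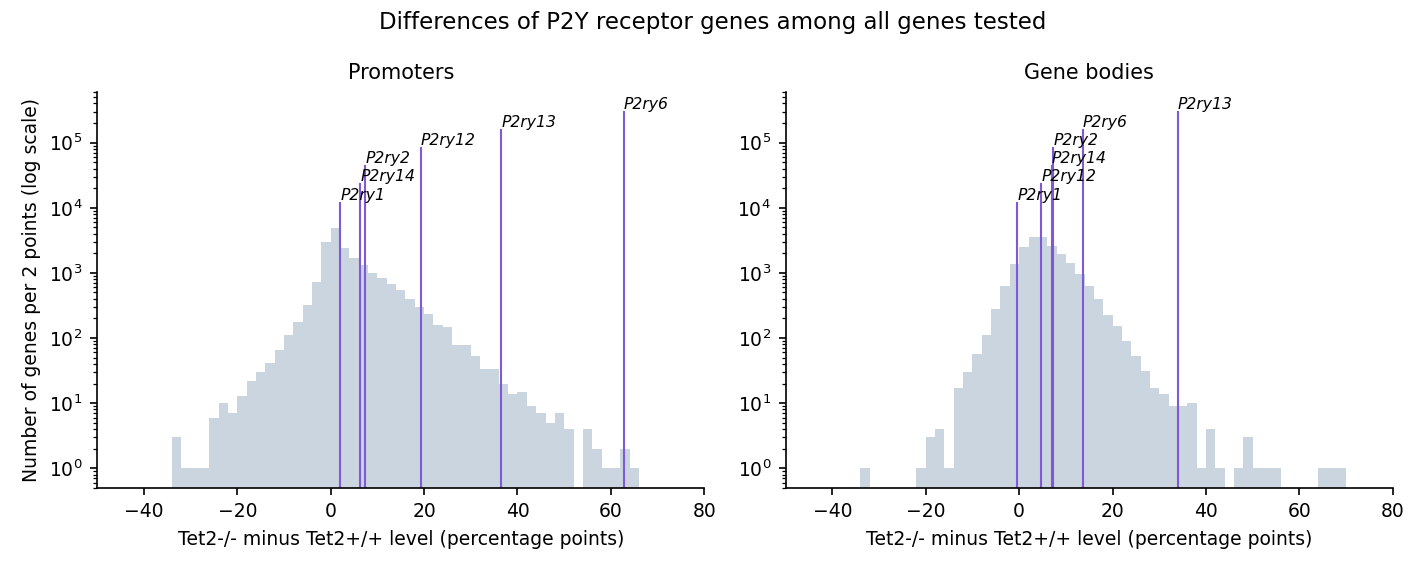
Number of genes (log scale) by the difference between the *Tet2*-/- and *Tet2*+/+ means in percentage points, for all tested promoters (left) and gene bodies (right), with a purple line at each P2Y receptor gene. *P2ry6* stands at the far right among promoters at 62.7 points, *P2ry13* is far right in both panels at 36.6 and 34 points, and the other genes lie within the bulk or on its right flank.

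The neighbors of *P2ry6* did not share its promoter difference. Protein-coding genes within 100 kb that are not members were *Arhgef17*, *Relt*, a TNF receptor family gene, and *Fam168a*, with promoter levels between 2.18% and 13.1% in all libraries. Their differences were -0.70, -1.94 and -5.34 points, and none passed (edgeR adjusted p of 0.938, 0.775 and 0.233). Around the cluster on chromosome 3 the promoters of *Med12l*, *Gpr171* and *Igsf10* were higher in *Tet2*-/- by at most 3.55 points, and none passed. The gene body of *Igsf10* rose by 9.03 points (edgeR adjusted p = 0.0377). The gene body of *Med12l*, which contains the cluster, was 8.78 points higher in *Tet2*-/- and did not pass (edgeR adjusted p = 0.182).

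Promoters near to that of *P2ry6* in level over the 5 libraries, by Euclidean distance among 19455 promoters, included those of *Eid3*, *Aldh8a1*, *Nr1h4* and *Hba-a1*. Their distances were 17.0 to 24.5 points, and their differences between the groups 45.1 to 64.0 points. For *Hba-a1*, an alpha globin gene with a near-identical copy, only 20 to 36 calls per library stood behind the value. The likeness was measured on the values that selected *P2ry6* and is a description of these libraries.

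Other genes of purinergic signaling were read from lists of related receptors, P2X ion channels, adenosine receptors, nucleotide release, nucleotide breakdown, and G proteins with their effectors (50 genes). Of 49 promoters tested, none passed edgeR's quasi-likelihood test in either direction, nor its likelihood ratio test or limma. With edgeR's quasi-likelihood test 7 of the 49 had an unadjusted p under 0.05, all higher. Over all 19455 promoters 3521 did, 3407 of them higher. The 49 promoters had a median difference of 2.25 points against 2.22 points over all promoters. All *Tet2*-/- libraries were above in 13 and below in 6 of the 49, where over all promoters the shares were 32.8% and 4.05%. Promoters of the 14 G proteins and effectors that act behind the receptors had a median of 2.44% in *Tet2*+/+ and 1.99% in *Tet2*-/-. The exceptions over 5% were *Gnai1*, a Gi protein gene, at 44.8% and 43.8%, and the phospholipase genes *Plcb1*, at 12.1% and 24.3%, and *Plcb3*, at 11% and 16.8%, none of which passed. Of the 50 gene bodies, 11 rose and none fell, beside 15.5% that rose in the whole table, with a median difference of 5.72 points against 4.95 points over all gene bodies.

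The 11 included *Plcb2*, the phospholipase C isoform of blood cells, with 64.6% and 58.9% in *Tet2*+/+ and 81.2%, 83.0% and 79.9% in *Tet2*-/- (edgeR adjusted p = 2.42e-06). Of the 7 P2X ion channels, the bodies of *P2rx7*, the ATP-gated channel that triggers the inflammasome, and *P2rx6* rose by 14.9 and 12.5 points. Among genes of nucleotide breakdown, the bodies of the ectonucleotidases *Entpd8*, *Entpd3* and *Enpp3* and of the phosphatase *Alpl* rose by 15.8, 13.9, 9.09 and 14.8 points. The body of *Adora1*, an adenosine receptor, rose by 14.9 points and that of *Panx2*, a pannexin, by 15.9 points, although its *Tet2*+/+ libraries lay at 59.0% and 31.5% and overlapped with *Tet2*-/-. Among related receptors, the body of *Gpr17* rose by 17.6 points. Without *Tet2*+/+ library 24, 1 of the 50 bodies passed, and the differences of *Panx2*, *Gpr17* and *Enpp3* became 2.08, 9.68 and 5.83 points.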

How the data were processed

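Genomic DNA of sorted AML blasts was sequenced after bisulfite conversion. The deposited values are counts of methylated and unmethylated reads at each cytosine of a CpG; per the labels and methods, the authors trimmed reads with Trim Galore 0.4.3, checked them with FastQC 0.11.7, aligned them to GRCm38 with Bismark 0.19.1 and Bowtie2 (non-directional), and extracted calls after deduplication. Duplicates removed by position leave PCR copies with other ends, and a C-to-T variant reads as unmethylated. Bisulfite reads do not tell 5-methylcytosine from 5-hydroxymethylcytosine, a product of TET2.

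Both strands of a CpG were added. Promoters (1000 bp on each side of the gene start) and gene bodies needed 20 calls per library. The test was that of edgeR 4.0.16 (methylated and unmethylated counts per library, quasi-likelihood test, R 4.3.3), with Benjamini-Hochberg adjustment over all genes. Single regions had two-sided exact permutation tests over the 5 libraries. Levels of 1 kb windows needed 10 calls per library. The code was tested on simulated data. Alternatives were other minimum calls, a likelihood ratio test, limma 3.58.1 with and without subtraction of library medians, other promoter widths, dyads called in all libraries, thinned depth, and each library left out.

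The members, gene lists and tests were chosen with earlier results of these data known. Named genes were the 6 members, purinergic genes that passed (up to 10 per kind by difference), protein-coding genes within 100 kb, and the 5 promoters nearest to that of *P2ry6*, of which some items are not reported here. Libraries of a group are separately numbered samples. The edgeR p-values rest in part on a spread between libraries that is pooled over all regions. A region whose own libraries differ widely can therefore pass, as the *Panx2* body did (edgeR adjusted p = 0.00423, limma adjusted p = 0.223). Exact permutation p-values use only the values of the region itself.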

Additional observations from a re-analysis of the deposited data

How the results depend on the processing

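The number of the 5 tested P2Y promoters that passed was 1, and 0 with limma after subtraction of each library's median, with 500 bp on each side, and in a range of 0 to 1 with 1 library left out (0 without 23, 24, 7 or 8). For their gene bodies it was 1, and 0 with limma after subtraction of library medians, with a range of 0 to 1 with 1 library left out (0 without 24). The limma adjusted p of *P2ry13* after that subtraction was 0.202 for the promoter and 0.174 for the gene body. An unadjusted edgeR p under 0.05 was seen for 1 of the 5 promoters. It was seen for 3 with 2000 bp on each side and for 2 without library 5, all higher. With 500 bp on each side it was seen for 0 of the 5. Over all promoters the counts were, in this order, 3521 of 19455, 4219 of 20672, 3473 of 19457 and 2502 of 18091. For the 5 gene bodies the count was 1, and 2 with thinned depth or without library 8. Over all genes, 209 promoters passed, against 918 with the likelihood ratio test, 77 with limma, 9 with limma after subtraction, 104 with 500 bp and 537 with 2000 bp on each side, and 0 to 298 with 1 library left out. The 0 came without library 24, where 1598 had an unadjusted edgeR p under 0.05. Gene bodies passed in 3216 cases, against 117 with limma, 1 with limma after subtraction and 87 to 3359 with 1 library left out. Of the purinergic gene bodies 11 passed, against 1 with limma, 0 with limma after subtraction (7 at an unadjusted p under 0.05) and 1 to 11 with 1 library left out. Over all 20715 gene bodies, limma after subtraction gave 3572 at an unadjusted p under 0.05. The *P2ry6* promoter difference was 77.3 points with 500 bp and 54.6 points with 2000 bp on each side. Small differences reversed with 1 library left out: the *P2ry14* promoter ranged from -2.22 points (without 23; -1.49 without 7) to 14.9 points, and the *P2ry1* gene body from -2.60 to 1.76 points (without 23; 0.73 without 7). In the first *P2ry2* window upstream, without library 23, an alternative added after seeing the data, the difference was -1.58 points, and in the next window 11.4 points. The cause was not tested. No paired analysis was possible because the libraries of the 2 groups share no replicate numbers. Depth of 2.96 to 5.19 calls per dyad limited the values to regions, and single regions of 20 calls are coarse.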

Other observations

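Promoter and body values of *P2rx7* lay in opposite directions. The promoter was at 28.5% and 20.2% in *Tet2*+/+ and 16.7%, 18.6% and 13.9% in *Tet2*-/-, with all *Tet2*-/- libraries below, but it did not pass (difference -7.94 points, edgeR adjusted p = 0.390). The body, at 53.7% and 48.9% in *Tet2*+/+ and 64.6%, 69.5% and 64.5% in *Tet2*-/-, rose by 14.9 points (edgeR adjusted p = 0.00419). The difference between promoter and body was not tested.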
